A study of Mus musculus with 11 samples.

Results

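The genes described here are the heat shock proteins and molecular chaperones of the mouse heart: the HSP70, HSP90, HSP110, HSP60 and small heat shock protein genes, the J-domain genes Dnaja, Dnajb and Dnajc, the BAG cochaperones and the subunits of the TRiC chaperonin. They were chosen by symbol, as all genes whose names begin with Hsp and one of the letters a to h or a digit, or with Dnaja, Dnajb or Dnajc, together with Bag1 to Bag6, Cct2 to Cct8 and Tcp1, and without the matrix proteoglycan gene Hspg2. This gave 82 of the 15274 genes in the table, and all 82 passed the filter on low values that 14751 genes passed. RNA sequencing was done on injured and uninjured regions of hearts from mice of the inbred strains C3H/HeJ (C3H) and C57BL/6J (B6), all 8 weeks old, with titles that name day 7. The 4 groups were C3H injured (n = 2), C3H uninjured (n = 3), B6 injured (n = 3) and B6 uninjured (n = 3), 11 libraries from 6 mice, and the labels name no transgene, deletion or drug. The kind of injury and the sex of the mice are not stated by the labels.

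Chaperones bind unfolded or partly folded proteins, keep them from clumping and help them to fold. HSP70 proteins bind and release client proteins in a cycle driven by ATP, J-domain proteins bring them clients and start the cycle, and BAG proteins release the nucleotide. HSP90 acts on kinases, steroid receptors and other near-native clients, TRiC folds actin and tubulin in a closed chamber, and small heat shock proteins hold unfolded proteins without ATP. In heart muscle the small heat shock proteins are abundant and bind to the contractile and filament apparatus. Mitochondria and the endoplasmic reticulum (ER) have chaperones of their own, which in part answer to separate stress responses.

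The libraries held 9699985 to 22138459 gene-assigned reads. On the first principal component (38.6% of the variance) scores were 88.1 and 102 for the C3H injured libraries, against -68.7 to 33.1 for all others. All C3H libraries had high Xist and Y-linked genes near 0, and all B6 libraries the reverse, so that strain and sex cannot be told apart. Markers of several cell types moved with injury, and their part in the results below was not tested. The summed normalised count of 10 cardiomyocyte markers was 574343 and 540135 in C3H injured libraries and 1782191, 1583291 and 1890309 in C3H uninjured libraries, a ratio of means of 0.318, and 8 of the 10 fell. In B6 this ratio was 0.612 and 0 of 10 passed with limma, while 3 had an unadjusted p under 0.05. For 9 macrophage markers the injured-to-uninjured ratio was 6.58 in C3H (8 rose) and 1.46 in B6, and for 10 fibroblast markers it was 5.09 in C3H (7 rose) and 1.66 in B6. The fibroblast sums were 836988 and 586668 in C3H injured and 282450.2, 50886 and 85996 in C3H uninjured libraries, and without C3H uninjured library 1 the C3H ratio was 10.4. Most of the mean sum in each C3H group came from the collagen genes Col1a1, Col1a2 and Col3a1. The fibroblast markers that did not pass in C3H were Tcf21 at -0.28, Dcn at 0.20 and Dpt at 0.89 (log2 fold change). These genes are named here after their values were seen. Endothelial markers had ratios of 0.816 in C3H and 1.11 in B6, and T and B cell markers 2.04 in C3H and 1.76 in B6. The T and B cell list was low throughout, with summed counts from 75.3 to 287 and Cd3d or Ms4a1 at 0 in a library. Of 10 smooth muscle and pericyte markers 8 were higher in C3H injured regions, with 2 that rose, 1 that fell and a median log2 fold change of 0.75. Their summed count had a ratio of 0.650 in C3H and 1.12 in B6. Most of that sum was Des, a gene also abundant in cardiomyocytes and named here after its values were seen, with a mean of 35908 in C3H injured and 70179 in C3H uninjured libraries. Neutrophil markers were high in both regions of C3H mouse 2 (4843 injured and 5774 uninjured), against 138 to 959 in the other 9 libraries, where Ngp was at 0 in 5. In bulk tissue, fewer cells of a type and less RNA per cell cannot be told apart.

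In C3H hearts most chaperone genes that differed between the regions were lower in the injured one, and their compartments differed in count. Of the 82 genes, 30 fell (36.6%, against 15.4% of all genes tested) and 4 rose (4.88%, against 15.3% of all genes), and the median log2 fold change, injured over uninjured, was -0.58 against 0.01 over all genes. The tests were made with limma on log2(normalised count + 1), with Benjamini-Hochberg adjustment over all genes and a threshold of 0.05. Of the members, 51 were lower and 9 higher in both C3H injured libraries than in every C3H uninjured library, against 29.7% and 29.6% of all genes. All 82 together made up 1.17% and 1.06% of normalised reads in C3H injured libraries and 1.58%, 1.57% and 1.63% in C3H uninjured libraries. All 6 small heat shock genes fell and all 8 mitochondrial chaperone genes fell, as did 3 of 6 BAG genes, 11 of 25 other J-domain genes, 1 of 8 TRiC subunits and 1 of 11 cytosolic HSP70 and HSP110 genes. Of 13 ER chaperone genes 3 rose and 0 fell, and a J-domain gene, Dnajc13, was the other that rose. Neither of the 2 cytosolic HSP90 genes nor any of 3 further genes with an HSP name passed (Hspbp1, Hspb11 and Hspbap1).

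The number of calls rested on C3H injured library 2, among the members and among all genes tested. Most of the 34 calls were lost without it, in a fit where the lone injured library left was assumed to vary like the other groups. Numbers of calls over all members are not given for fits with 1 injured library. Without C3H uninjured library 3, 19 members fell and 2 rose. Of all 14751 genes tested, 1456 fell and 1662 rose without C3H uninjured library 3, against 2274 and 2253 with all libraries. The median over the members was -0.53 without C3H injured library 2, -0.64 without C3H injured library 1 and -0.53 without C3H uninjured library 3. Of the 34 calls, 8 held under all 20 alternatives tried, those of Hspb2, Hspa9, Bag3, Dnaja2, Dnaja4, Dnajb2, Dnajb5 and Dnajc28. With the animal as a fixed block, 34 members passed (34.9% of all genes), and a fit of the C3H groups alone lost the calls of Bag2, Dnajc17, Hspa13, Hspa1l, Hspb3, Hspb7 and Hspb8, at adjusted p from 0.0518 (Hspb3) to 0.083 (Hspb8).

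In B6 hearts 0 of the 82 genes passed with limma, where 0.0136% of all genes did, and edgeR (0.0136% of all genes) and DESeq2 (0.306%) called 0 members too. With the animal as a fixed block 0 members passed, where 17 of all genes rose and 3 fell. As a random block it gave 0 members, with 13 and 3 of all genes. An unadjusted p under 0.05 was found for 13 members (13.4% of all genes). The median was -0.25 against 0.01 over all genes, with 61 of 82 genes lower in the injured regions. Of the 82 genes, 11 were lower and 1 was higher in all 3 B6 injured libraries than in every B6 uninjured library, against 7.69% and 9.83% of all genes. Class medians in B6 were -0.60 for mitochondrial chaperones, -0.38 for TRiC, -0.32 for other J-domain genes, -0.22 for BAG genes, -0.16 for small heat shock genes, -0.11 for cytosolic HSP70 and HSP110 genes and 0.14 for ER chaperones.

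**Figure D1:**
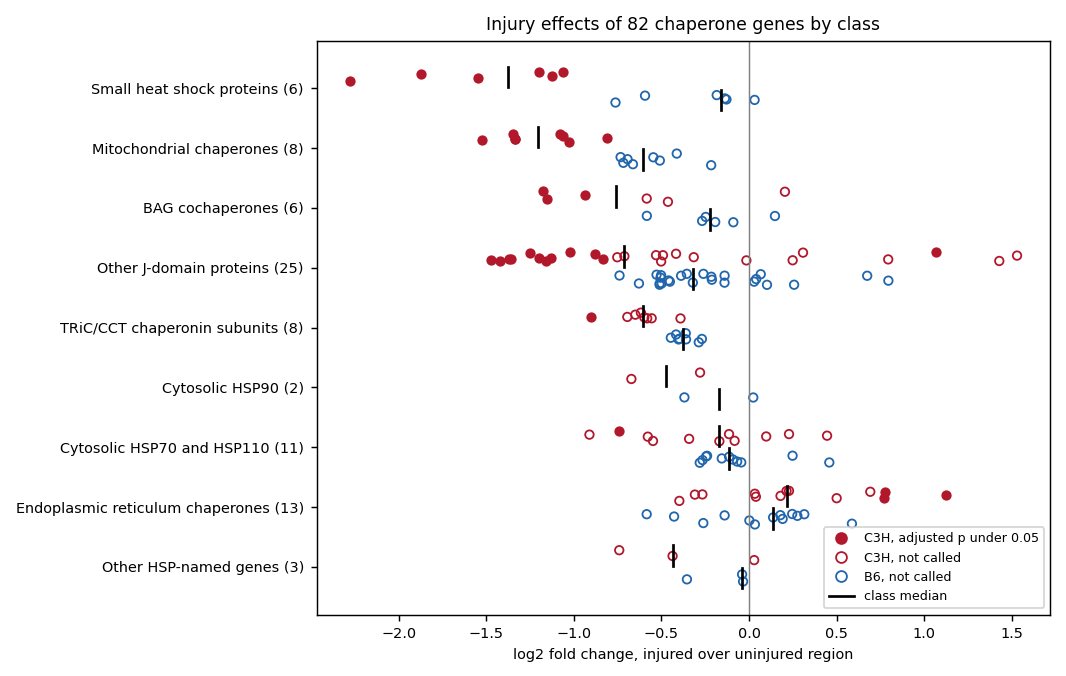
Log2 fold change of each of the 82 genes, injured over uninjured region, by class (number of genes in brackets), with C3H in red above B6 in blue, filled points past an adjusted p of 0.05 and black bars at class medians. The C3H points of the small heat shock and mitochondrial classes are all filled and lie left of 0 with medians of -1.37 and -1.21, and no B6 point is filled.

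Levels were compared between genes as normalised counts per kilobase of exon. Hspb7, a small heat shock protein of heart and skeletal muscle, was the highest of the 82 in each group, at 12916 ± 1879 per kilobase in C3H injured, 29624 ± 2516 in C3H uninjured, 14575 ± 795 in B6 injured and 16095 ± 1902 in B6 uninjured regions (SD). Hspb6 was next to it in 3 groups, at 16448 ± 3733 in C3H uninjured, 12936 ± 1885 in B6 injured and 14616 ± 834 in B6 uninjured regions, and in both B6 groups it lay within the summed SDs of Hspb7. In C3H injured regions Hsp90ab1, the constitutive cytosolic HSP90, came second at 7012 ± 763, then Hspb6 at 5773 ± 2311, within the summed SDs of each other.

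All 6 small heat shock protein genes fell in injured C3H regions (15.4% of all genes), by a median of 1.37 on the log2 scale. Their summed normalised count was 51490.4 and 50579.9 in C3H injured libraries and 110595, 120552 and 131111 in C3H uninjured libraries, a ratio of means of 0.423. In B6 the sum was 77699, 75383 and 68812 in injured and 77029, 79707 and 86061 in uninjured libraries, a ratio of 0.914, and no gene of the class passed (lowest adjusted p = 0.427, for Hspb2). The cardiomyocyte markers had ratios of 0.318 in C3H and 0.612 in B6, and their part in these differences was not tested.

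Hspb7 had normalised counts of 32084 and 39444 in C3H injured libraries, against 75369, 89265 and 81452 in C3H uninjured libraries. The counts were 39083, 42898 and 39091 in B6 injured libraries and 39269.9, 44627 and 49805 in B6 uninjured libraries. The C3H uninjured libraries thus stood above all 8 others. Hspb7 fell by 1.20 on the log2 scale (SE 0.28, adjusted p = 0.00791) in C3H and was at -0.14 (SE 0.25, adjusted p = 0.825) in B6, where quantile normalisation gave 0.18.

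Hspb6, also known as HSP20 and a target of protein kinase A in cardiomyocytes, had 10096 and 5642 in C3H injured libraries and 19921, 19061 and 28273 in C3H uninjured libraries. It had 20537, 15658 and 16699 in B6 injured and 20929, 20145 and 18690.3 in B6 uninjured libraries, so that both C3H injured libraries lay below all the others. It fell by 1.55 on the log2 scale (SE 0.30, adjusted p = 0.00282) in C3H and was at -0.18 (SE 0.27, adjusted p = 0.771) in B6 (0.19 with quantile normalisation). Hspb2, which is made in muscle and forms complexes with Hspb3, had 324 and 230.4 in C3H injured and 910.0, 805 and 1381 in C3H uninjured libraries. In B6 it had 1079.6, 900.3 and 630.1 in injured and 1459, 1781 and 811 in uninjured libraries, which overlapped. It fell by 1.87 on the log2 scale (SE 0.36, adjusted p = 0.00279) in C3H and was at -0.59 (SE 0.32, adjusted p = 0.427) in B6.

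Hspb8, which works with Bag3 in the removal of damaged filament proteins, had 7332 and 3585 in C3H injured and 11676, 7796 and 15404 in C3H uninjured libraries. The groups came close but did not overlap, and Hspb8 fell by 1.13 on the log2 scale (SE 0.35, adjusted p = 0.0305) in C3H, with 0.032 (SE 0.32, adjusted p = 0.971) in B6 from 14319, 14247 and 10659 in injured and 12479, 10798 and 15103 in uninjured libraries. The B6 value was -0.040 without B6 injured library 1, -0.037 without B6 injured library 2 and -0.084 without B6 uninjured library 2. Hspb1, known as HSP25 or HSP27 and a regulator of actin filaments, had 1593 and 1663 in C3H injured and 2557, 3543 and 4341 in C3H uninjured libraries and fell by 1.06 on the log2 scale (SE 0.30, adjusted p = 0.0194). It was at -0.13 (SE 0.27, adjusted p = 0.849) in B6, where quantile normalisation gave 0.016. Hspb3, the partner of Hspb2, was the least abundant, with 61.4 and 14.8 in C3H injured and 161, 82.7 and 260.2 in C3H uninjured libraries, and fell by 2.28 on the log2 scale (SE 0.62, adjusted p = 0.0164). It was at -0.76 (SE 0.56, adjusted p = 0.536) in B6.

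Of these calls that of Hspb2 alone held without each library in turn. Without C3H injured library 2, adjusted p was 0.0582 for Hspb6, 0.0966 for Hspb1, 0.22 for Hspb3 (value -1.29) and 0.343 for Hspb8 (value -0.61). Without C3H injured library 1 it was 0.0763 for Hspb7 and 0.0972 for Hspb1. Without C3H uninjured library 3 it was 0.0718 for Hspb1, 0.0625 for Hspb3 and 0.107 for Hspb8, and without C3H uninjured library 1 it was 0.0557 for Hspb8. With quantile normalisation the calls of Hspb7 (adjusted p = 0.0537) and Hspb8 (adjusted p = 0.181) were lost as well.

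**Figure D2:**
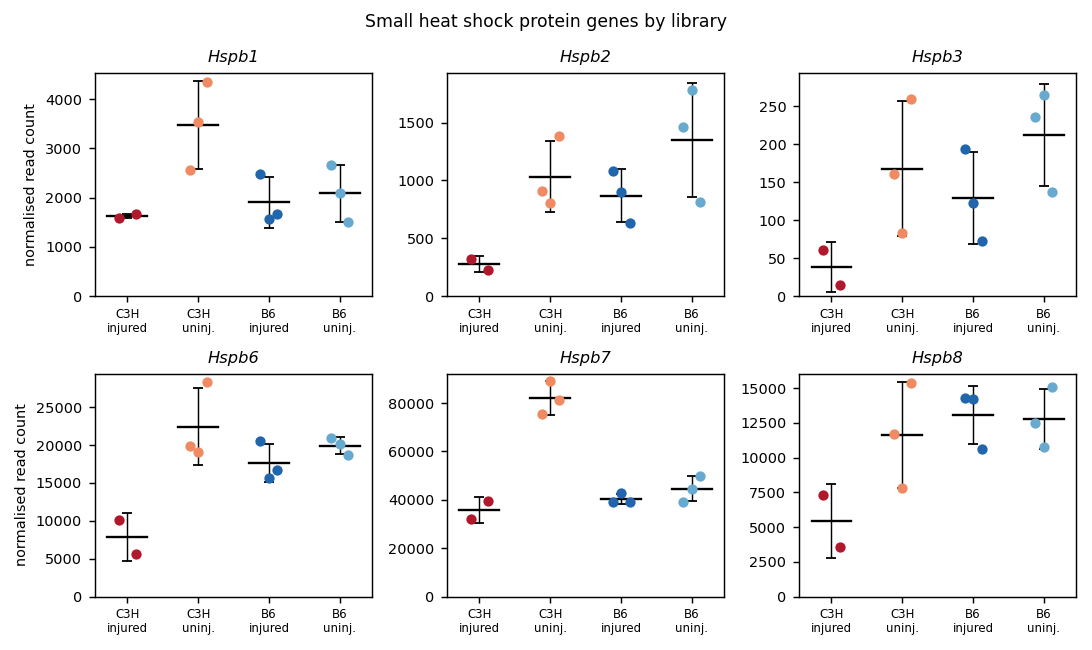
Normalised read count of the 6 small heat shock protein genes in each library (points), with group means (bars) and SDs (whiskers), by strain and region. In every panel both C3H injured points lie below the 3 C3H uninjured points, while the B6 groups overlap.

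Cryab, the alpha-B crystallin gene next to Hspb2 on the genome and itself a small heat shock protein by structure, is outside the chosen symbols. It had 14953 and 9165 in C3H injured and 33257, 32893 and 50605 in C3H uninjured libraries and fell by 1.70 on the log2 scale (SE 0.35, adjusted p = 0.00415), a call lost without C3H injured library 2 (adjusted p = 0.0726). Among 6 crystallins and myosin or filament chaperones 2 fell (33.3%, against 15.4% of all genes) and 0 rose. The other was Smyd1, a muscle methyltransferase needed for myosin assembly, at -1.21 (SE 0.26, adjusted p = 0.0046). Its call was lost without the same library (adjusted p = 0.0751). In B6 0 of the 6 passed with limma and 1 had an unadjusted p under 0.05 (13.4% of all genes). Neither edgeR nor DESeq2 called a gene in B6 in this list or in any of the other 6 lists of related genes below.

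All 8 genes classed here as mitochondrial chaperones fell in injured C3H regions (15.4% of all genes), by 0.81 to 1.52 on the log2 scale. None of the 8 overlapped between the C3H groups (29.7% of all genes were lower without overlap). Their summed count was 13006 and 10620.1 in C3H injured libraries and 28535, 25993 and 30877 in C3H uninjured libraries, a ratio of means of 0.415. In B6 the sum was 23643, 19178 and 17578 in injured and 25911, 36313 and 27339.6 in uninjured libraries, a ratio of 0.674. All 8 genes were lower in B6 injured regions too, 6 of them with an unadjusted p under 0.05 (13.4% of all genes). None had an adjusted p under 0.05 with limma (the lowest was 0.364, for Dnajc30). The cardiomyocyte marker ratios given above ran the same way in both strains, and their part in these differences was not tested.

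Hspa9, the mitochondrial HSP70 that pulls proteins into the matrix, had 6258 and 5317 in C3H injured and 15186, 13368 and 15206 in C3H uninjured libraries. In B6 it had 11053, 9114 and 8424 in injured and 10809.6, 16669 and 13579.6 in uninjured libraries. Both C3H injured libraries were lower than all 9 others, and Hspa9 fell by 1.34 on the log2 scale (SE 0.25, adjusted p = 0.00229) in C3H and was at -0.51 (SE 0.22, adjusted p = 0.367) in B6. Hspd1, the HSP60 subunit of the matrix folding chamber, had 1938 and 1201 in C3H injured and 4513, 2969 and 4289.6 in C3H uninjured libraries. Hspe1, the HSP10 lid of that chamber, had 713 and 538 in C3H injured and 1210.0, 1525 and 2117 in C3H uninjured libraries. The pair fell by 1.34 on the log2 scale (SE 0.30, adjusted p = 0.00595) for Hspd1 and by 1.35 (SE 0.36, adjusted p = 0.0146) for Hspe1. In B6 injured libraries Hspd1 had 3610.5, 2816 and 2772 and Hspe1 1685, 1233 and 915, against 4056, 6738 and 4362 and 2269, 2843 and 1312 in B6 uninjured libraries. The B6 log2 fold changes were -0.69 (SE 0.27, adjusted p = 0.364) for Hspd1 and -0.72 (SE 0.32, adjusted p = 0.372) for Hspe1.

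Hspd1 and Hspe1 are neighbours that are read in opposite directions from a shared promoter, and the window below is shown because it lies upstream of both. In RefSeq promoters of build GRCm38.p6, 250 bases before to 50 bases after each start, 68 of the 82 genes were found, and these letters were searched on both strands. The heat shock element (GAA, TTC and GAA with 2 letters between each) is the kind of site that heat shock factors bind. It was found in 4 of the 68 (Hspd1, Hspe1, Hsph1 and Dnajb6), or 5.88%, against 0.662% of 27025 genes. The shorter GAANNTTC, which is part of the element, was in 15 of the 68 (22.1%) and in 9.04% of all genes. In both counts the same stretch is counted for Hspd1 and again for Hspe1. In the first window, at chr1:55088044-55088091 on the plus strand as Hspe1 is read, 2 overlapping matches on opposite strands form 1 run. The second lies at chr5:29735837-29735879 on the plus strand, upstream of the J-domain gene Dnajb6. Capitals mark the fixed letters of the element.
Hspe1: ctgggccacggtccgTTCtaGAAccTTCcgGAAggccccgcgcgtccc
Dnajb6: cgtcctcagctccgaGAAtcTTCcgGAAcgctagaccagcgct

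These matches describe the sequence only and do not show binding. The genes that hold the element were not all called in C3H, with -1.34 for Hspd1 and -1.35 for Hspe1 past the threshold. Dnajb6 at -0.53 (adjusted p = 0.0761) and Hsph1 at -0.17 (adjusted p = 0.745) did not pass with limma. Dnajb6 passed with DESeq2 and with the animal as a random block.

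Among the mitochondrial J-domain genes, Dnaja3, the partner of Hspa9 in the matrix, had 1939.6 and 1479.7 in C3H injured and 3727, 3174 and 3759.5 in C3H uninjured libraries and fell by 1.06 on the log2 scale (SE 0.21, adjusted p = 0.00287). Dnajc15 and Dnajc19, which are tied to the import motor of the inner membrane, were at -1.52 (SE 0.37, adjusted p = 0.0091) and -1.03 (SE 0.36, adjusted p = 0.0468). Dnajc11, a protein of the outer membrane near the cristae organising complex, was at -0.81 (SE 0.20, adjusted p = 0.00987), and Dnajc30, which has been tied to complex I upkeep and ATP synthase, was at -1.08 (SE 0.28, adjusted p = 0.0129). In B6 these 5 were at -0.41, -0.73, -0.55, -0.22 and -0.66 in the order named. Without C3H injured library 2, adjusted p was 0.0545 for Dnaja3, 0.0742 for Dnajc15, 0.28 for Dnajc19, 0.0732 for Dnajc11, 0.0641 for Dnajc30, 0.0948 for Hspd1 and 0.131 for Hspe1. Of the class the call of Hspa9 alone was kept there. Without C3H injured library 1 it was 0.0565 for Dnajc11, 0.0805 for Dnajc19 and 0.0867 for Dnajc30, and without C3H uninjured library 3 it was 0.0561 for Hspe1 and 0.145 for Dnajc19. The Dnajc19 call was also lost without C3H uninjured library 2 (0.0821), B6 injured library 2 (0.0666), B6 uninjured library 1 (0.0546) or B6 uninjured library 2 (0.0561).

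**Figure D3:**
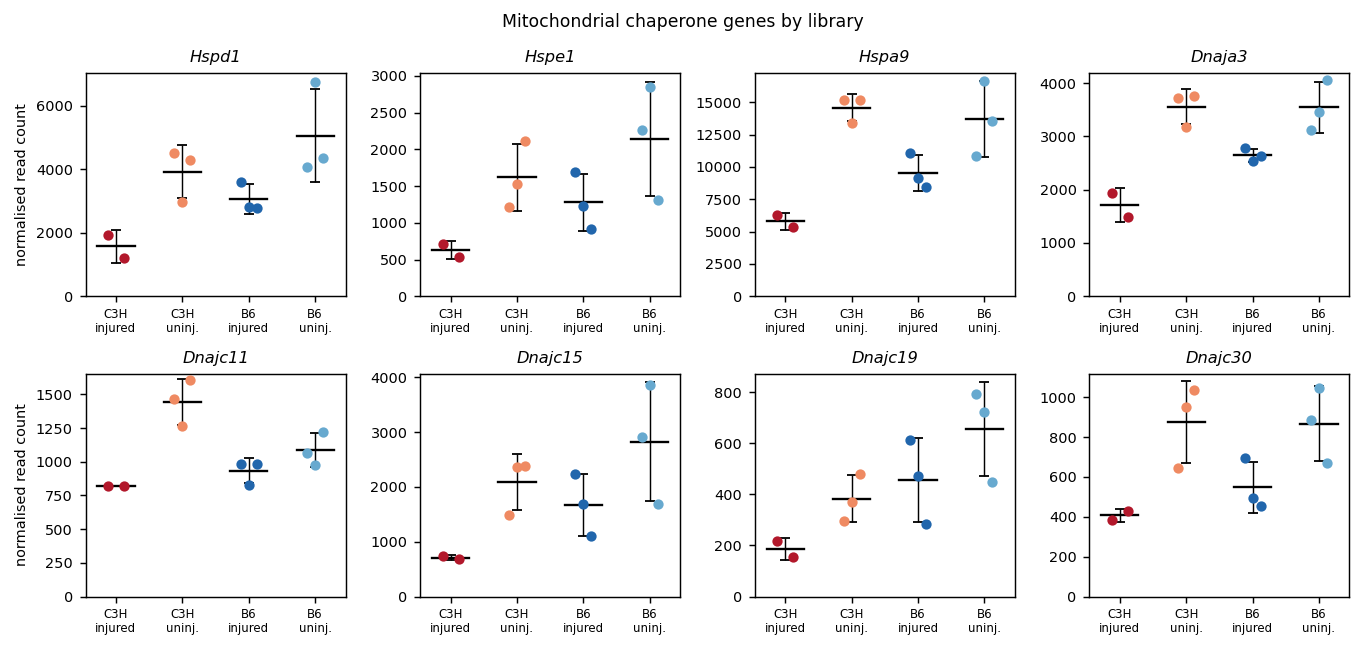
Normalised read count of the 8 mitochondrial chaperone genes in each library (points), with group means (bars) and SDs (whiskers), by strain and region. Both C3H injured points lie below all C3H uninjured points in each panel, from a mean of 5788 in injured against 14587 in uninjured regions for Hspa9 to 186 against 383 for Dnajc19.

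Other genes of mitochondrial import, folding and proteolysis moved with them in C3H. Of 24, 17 fell (70.8%, against 15.4% of all genes) and 0 rose, with a median of -1.01. Grpel1, the nucleotide exchange factor of Hspa9, had 905 and 766 in C3H injured and 2119, 2699 and 3207 in C3H uninjured libraries and fell by 1.66 on the log2 scale (SE 0.28, adjusted p = 0.00146). Timm17a, a subunit of the inner membrane translocase, was at -1.71 (SE 0.37, adjusted p = 0.00497), or adjusted p = 0.0501 without C3H injured library 2. In B6 0 of the 24 passed with limma, 8 had an unadjusted p under 0.05 (13.4% of all genes), and the median was -0.44.

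Few of the cytosolic HSP70, HSP110 and HSP90 genes passed with limma. Of 11 cytosolic HSP70 and HSP110 genes 1 fell in C3H (9.09%, against 15.4% of all genes) and 0 rose, with a median of -0.17. DESeq2 called 3 of the 11 as lower (2711 of all 14751 genes), and limma with the animal as a random block 4 (3115 of all genes). In B6 0 of the 11 passed with limma and 0 had an unadjusted p under 0.05 (13.4% of all genes). Hspa1a and Hspa1b encode near-identical heat-inducible HSP70 proteins, so that reads matching both may have been split between them or left uncounted. Hspa1a had 135 and 103 in C3H injured and 119.8, 140.3 and 60.4 in C3H uninjured libraries, which overlapped, and was at 0.23 (SE 0.38, adjusted p = 0.672), with -0.097 under quantile normalisation. It had 145, 111 and 111 in B6 injured and 103, 68.4 and 96.6 in B6 uninjured libraries and was at 0.46 (SE 0.34, adjusted p = 0.538) there, without overlap. Hspa1b was at 0.45 (SE 0.35, adjusted p = 0.359) in C3H and 0.25 (SE 0.32, adjusted p = 0.73) in B6. Dnajb1, the inducible HSP40 partner of these proteins, had 565 and 512 in C3H injured and 453, 419 and 487 in C3H uninjured libraries, without overlap. It was at 0.25 (SE 0.23, adjusted p = 0.427) in C3H and 0.26 (SE 0.20, adjusted p = 0.566) in B6. None of these values passed the threshold.

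Hspa8, the constitutive HSP70, had 7259 and 8224 in C3H injured and 9771, 9217 and 10429 in C3H uninjured libraries. It was lower in both injured libraries than in any uninjured one, but at -0.34 (SE 0.23, adjusted p = 0.27) it did not pass, and quantile normalisation gave 0.19. In B6 it was at -0.25 (SE 0.20, adjusted p = 0.584). The gene that fell was Hspa1l, which lies beside Hspa1a and is known from testis, with 183 and 158 in C3H injured and 263, 295 and 298 in C3H uninjured libraries. It fell by 0.74 on the log2 scale (SE 0.25, adjusted p = 0.0402) and was at -0.16 (SE 0.22, adjusted p = 0.766) in B6. This call was lost with the animal as a fixed block (adjusted p = 0.0765), in a fit where C3H mouse 3, with no injured library, adds nothing to the injury effect. It was lost without C3H injured library 1 (0.0998) or 2 (0.227), C3H uninjured library 1 (0.0524), 2 (0.0814) or 3 (0.102), or B6 injured library 2 (0.06).

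The other HSP70 and HSP110 genes did not pass in C3H in the main limma test. DESeq2 called Hspa12b and Hspa4 there, and limma with the animal as a random block called Hspa12b, Hspa4 and Hspa4l. Hspa12b, an HSP70 relative of endothelial cells, was at -0.91 (SE 0.38, adjusted p = 0.0859), and it passed with the animal as a fixed block (adjusted p = 0.0456). The nucleotide exchange factors of the HSP110 family were at -0.55 (SE 0.20, adjusted p = 0.0599) for Hspa4, -0.58 (SE 0.26, adjusted p = 0.111) for Hspa4l and -0.17 (SE 0.36, adjusted p = 0.745) for Hsph1. Hsph1 changed sign without C3H injured library 2 (0.17) or C3H uninjured library 1 (0.16). Values for Hspa14, a ribosome-associated HSP70, were -0.11 (SE 0.22, adjusted p = 0.716), and for Hspa2, known from sperm development, 0.098 (SE 0.25, adjusted p = 0.788), with -0.14 under quantile normalisation. Hspa12a is described with the strain comparisons below.

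Hsp90ab1, the constitutive cytosolic HSP90, had 19030.1 and 16312 in C3H injured and 32044, 23592 and 29239.9 in C3H uninjured libraries, without overlap. At -0.67 (SE 0.25, adjusted p = 0.058) it missed the threshold, and it passed with edgeR (adjusted p = 0.0442) and DESeq2 (adjusted p = 0.0034). It had 19783, 16877 and 18369 in B6 injured and 22078, 24575 and 24346 in B6 uninjured libraries, again without overlap, and was at -0.37 (SE 0.22, adjusted p = 0.461). Hsp90aa1, the inducible form, had 1394 and 948 in C3H injured and 1532, 1288 and 1377 in C3H uninjured libraries, which overlapped. It was at -0.28 (SE 0.26, adjusted p = 0.432) in C3H and 0.024 (SE 0.23, adjusted p = 0.97) in B6.

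Of 10 heat shock factor genes and their regulators 3 fell (30%, against 15.4% of all genes) and 0 rose in C3H (median -0.62). In B6 0 passed with limma, and 2 had an unadjusted p under 0.05 (13.4% of all genes). Hsf1, the main factor of the heat shock response, had 481 and 443 in C3H injured and 697, 679 and 719 in C3H uninjured libraries and was at -0.60 (SE 0.20, adjusted p = 0.043). It is named after its values were seen. Its call was lost without either C3H injured library (0.12 without library 1 and 0.217 without library 2), without C3H uninjured library 1 (0.0742), 2 (0.07) or 3 (0.104), without B6 injured library 1 (0.0553) or 2 (0.0611), and with the animal as a fixed block (0.0601). The others were Vcp, a hexameric ATPase that extracts ubiquitinated proteins, at -0.75 (SE 0.24, adjusted p = 0.0337), and Hsbp1l1, a relative of a heat shock factor binding protein, at -1.99 (SE 0.66, adjusted p = 0.0394). The Vcp call was lost without C3H injured library 1 (0.0768) or 2 (0.223), C3H uninjured library 1 (0.0753) or 3 (0.115) or B6 injured library 2 (0.0523), with the fixed block (0.0531) and with quantile normalisation (0.136). That of Hsbp1l1 was lost without C3H injured library 1 (0.242) or 2 (0.0778), C3H uninjured library 2 (0.12) or 3 (0.0709) or B6 uninjured library 1 (0.0521).

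Of the 13 ER chaperone genes 3 rose in C3H (23.1%, against 15.3% of all genes) and 0 fell (against 15.4%). The class median was 0.21, or 0.06 without C3H uninjured library 3. Their summed count was 31033 and 26159 in C3H injured libraries and 34216, 25261 and 28283 in C3H uninjured libraries, which overlapped, with a ratio of means of 0.978. In B6 the sum was 32899, 26968 and 23704 in injured and 30399.6, 41873 and 30789.9 in uninjured libraries, a ratio of 0.811. There 0 genes passed with limma and 1, Hspa5, had an unadjusted p under 0.05 (13.4% of all genes). Macrophage markers had a C3H ratio of 6.58. The fibroblast marker sum, mostly collagen counts, had one of 5.09 (10.4 without C3H uninjured library 1). The part of both in the values of this class was not tested.

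Dnajc3, a cochaperone of the ER HSP70 that also restrains the kinases of the initiation factor eIF2, had 2036 and 2596 in C3H injured and 1353, 1516 and 1187 in C3H uninjured libraries. Its B6 counts were 1512, 1445 and 1416 in injured and 1365, 1427 and 1581 in uninjured libraries. The C3H injured libraries were above all 9 others, with a rise of 0.77 on the log2 scale (SE 0.20, adjusted p = 0.0118), and B6 was at 0.0020 (SE 0.18, adjusted p = 0.998). Hspa13, an HSP70 relative of the microsomes, had 753 and 579 in C3H injured and 453, 319 and 396 in C3H uninjured libraries and rose by 0.77 on the log2 scale (SE 0.23, adjusted p = 0.023). In B6 it was at 0.033 (SE 0.20, adjusted p = 0.952). Dnajb14, a J-domain protein of the ER membrane that faces the cytosol, had 201 and 257 in C3H injured libraries and 86.1 to 129 in C3H uninjured libraries and rose by 1.13 on the log2 scale (SE 0.28, adjusted p = 0.0105). None of the 3 passed without C3H injured library 2, at adjusted p = 0.144 for Dnajc3, 0.0547 for Hspa13 and 0.115 for Dnajb14. The Hspa13 call was also lost without C3H injured library 1 (0.19), C3H uninjured library 2 (0.0683) or C3H uninjured library 3 (0.052).

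The most abundant ER chaperones did not pass in either strain. Hspa5, known as BiP or GRP78 and the ER HSP70, had 9696 and 7861 in C3H injured and 14199, 9082 and 11802 in C3H uninjured libraries, which overlapped. It was at -0.40 (SE 0.30, adjusted p = 0.327), with 0.10 under quantile normalisation. In B6 it had 11749.5, 8331 and 7907 in injured and 11989, 18403 and 11823 in uninjured libraries and was at -0.58 (SE 0.26, adjusted p = 0.372). Hsp90b1, the ER HSP90 known as GRP94, had 9889.9 and 6679 in C3H injured and 10097, 6248 and 7946 in C3H uninjured libraries and was at 0.033 (SE 0.32, adjusted p = 0.946). Its sign changed without C3H injured library 1 (-0.25) or C3H uninjured library 2 (-0.14). The J-domain cochaperones of Hspa5 were at -0.27 for Dnajb9, 0.039 for Dnajb11, 0.50 for Dnajc1 and 0.23 for Dnajc10 in C3H, with adjusted p from 0.151 to 0.899. The membrane J-domain genes Dnajb12, Dnajc14, Dnajc16 and Dnajc18 lay between -0.31 and 0.69.

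The ER stress element, CCAAT and CCACG with 9 letters between them, was found in the promoters of 3 of the 68 genes, or 4.41%, against 0.137% of all genes. The windows below are shown because one gene that rose, Dnajc3, and one that did not pass, Hspa5, both hold the element. They lie at chr14:118937812-118937860 and chr2:34772010-34772058 of GRCm38.p6, both on the plus strand, and Hsp90b1 is the other gene. Capitals mark the fixed letters.
Dnajc3: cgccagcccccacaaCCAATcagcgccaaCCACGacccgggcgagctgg
Hspa5: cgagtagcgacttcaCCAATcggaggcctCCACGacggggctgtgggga

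**Figure D4:**
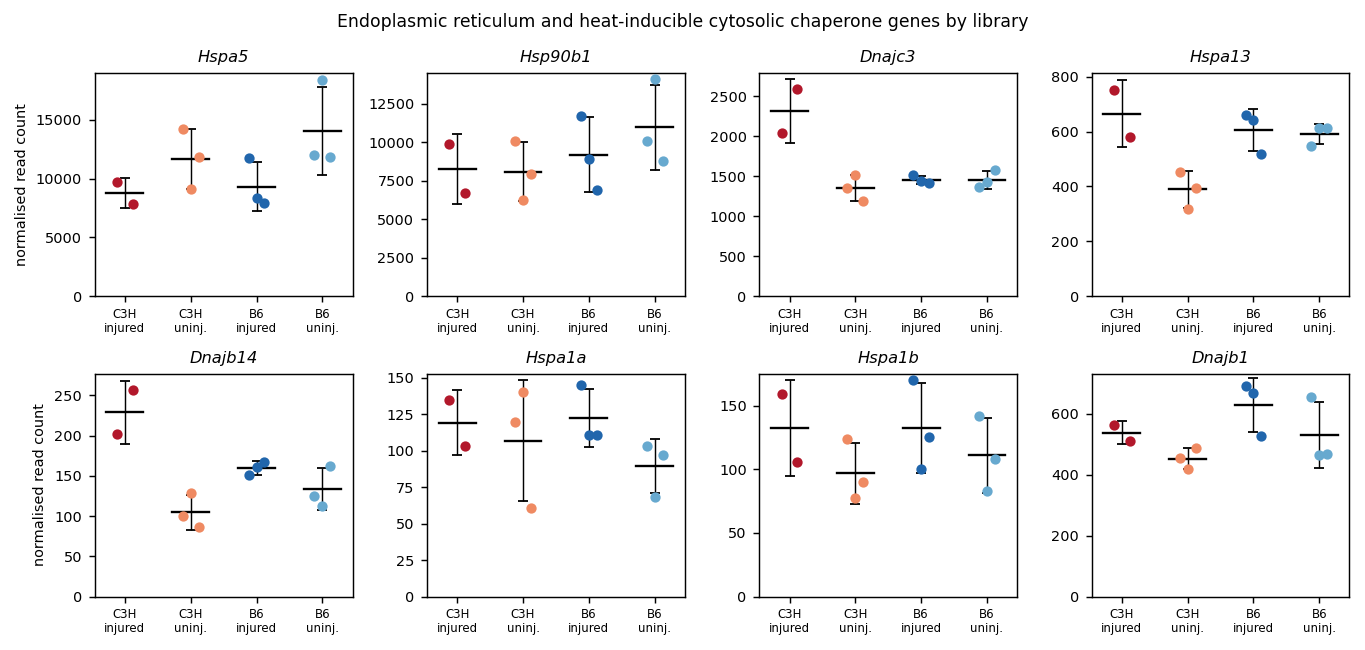
Normalised read count of 5 ER chaperone genes and 3 heat-inducible cytosolic genes in each library (points), with group means (bars) and SDs (whiskers), by strain and region. Both C3H injured points lie above the C3H uninjured points for Dnajc3, Hspa13 and Dnajb14, and for Dnajb1, which did not pass. Among the C3H points those of Hspa5, Hsp90b1, Hspa1a and Hspa1b overlap.

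Other genes of ER folding and of the unfolded protein response rose in part in C3H. Of 34, 10 rose (29.4%, against 15.3% of all genes) and 0 fell, with a median of 0.57. Edem1, which marks misfolded glycoproteins for disposal, had 1584 and 2452 in C3H injured and 496, 489 and 340.1 in C3H uninjured libraries and was at 2.18 (SE 0.25, adjusted p = 0.000145). Ero1lb, an ER oxidase, was at 1.70 (SE 0.29, adjusted p = 0.0014), and both calls held without each library in turn. Of 10 genes of collagen folding 3 rose (30%, against 15.3% of all genes) and 0 fell, with a median of 0.84. Fkbp10, a collagen prolyl isomerase, was at 1.73 (SE 0.47, adjusted p = 0.0158), or adjusted p = 0.137 without C3H injured library 1. Ppib, another isomerase, was at 1.27 (SE 0.39, adjusted p = 0.0266), with its call lost without C3H injured library 1 (0.149) or 2 (0.0901) or C3H uninjured library 2 (0.0812). In B6 0 of the 34 and 0 of the 10 passed with limma, and 0 of either list had an unadjusted p under 0.05. The C3H ratio of the fibroblast marker sum, mostly collagen counts, was 5.09, or 10.4 without C3H uninjured library 1, and its part here was not tested.

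The 8 TRiC subunit genes, Tcp1 and Cct2 to Cct8 (the sixth as Cct6a), lay close together. All 8 were lower in C3H injured regions, at -0.90 to -0.39, and in B6 injured regions, at -0.45 to -0.27. In C3H none of the 8 overlapped between the regions (29.7% of all genes were lower without overlap). With limma 1 of them fell (12.5%, against 15.4% of all genes). That gene, Cct7, had 1759 and 1627 in C3H injured and 2920.0, 3111 and 3483 in C3H uninjured libraries and fell by 0.90 on the log2 scale (SE 0.26, adjusted p = 0.0228). Its call was lost without C3H injured library 1 (0.0821) or 2 (0.14) or C3H uninjured library 3 (0.0714). Tcp1, the alpha subunit, was at -0.62 (SE 0.23, adjusted p = 0.0569) in C3H and -0.36 (SE 0.20, adjusted p = 0.438) in B6. Its C3H value passed with TMM scaling, DESeq2, the animal as a random block and without B6 uninjured library 2. In B6 0 subunits passed with limma and 0 had an unadjusted p under 0.05. The summed subunit count was 16066 and 15089 in C3H injured, 21152, 23911 and 27156 in C3H uninjured, 23303, 17334 and 15117 in B6 injured and 23463, 30728 and 18340.3 in B6 uninjured libraries.

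Genes of prefoldin and of tubulin or actin folding hand clients to TRiC or act after it. Of 16, 5 fell (31.25%, against 15.4% of all genes) and 0 rose in C3H (median -0.70). Pdrg1, a prefoldin-like protein, was at -1.67 (SE 0.32, adjusted p = 0.00267) and Pfdn6, a prefoldin subunit, at -1.48 (SE 0.29, adjusted p = 0.003), and both calls held without each library in turn. In B6 0 of the 16 passed with limma and 3 had an unadjusted p under 0.05 (13.4% of all genes).

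Among the BAG cochaperones Bag1, Bag2 and Bag3 fell in C3H (50%, against 15.4% of all genes) while Bag4, Bag5 and Bag6 did not pass. Bag3, which links HSP70 to Hspb8 and filament turnover in muscle, had 3161 and 3342 in C3H injured and 6051, 6374 and 6252 in C3H uninjured libraries. The B6 counts were 3648, 2929 and 4147 in injured and 4333, 3702 and 4622 in uninjured libraries. The C3H uninjured libraries lay above all others, and Bag3 fell by 0.94 on the log2 scale (SE 0.21, adjusted p = 0.00604) in C3H and was at -0.25 (SE 0.19, adjusted p = 0.551) in B6. Bag1, which binds HSP70 near the proteasome, had 2739 and 2426 in C3H injured and 4910.3, 5976 and 6719 in C3H uninjured libraries and fell by 1.17 on the log2 scale (SE 0.29, adjusted p = 0.0105), with adjusted p = 0.0901 without C3H injured library 2. In B6 it was at -0.58 (SE 0.26, adjusted p = 0.372). Bag2, an inhibitor of the ubiquitin ligase CHIP, had 975 and 424 in C3H injured and 1439, 1058 and 1930.4 in C3H uninjured libraries and fell by 1.15 on the log2 scale (SE 0.34, adjusted p = 0.0222). Its value rested on single libraries, at -1.75 without C3H injured library 1, -0.56 (adjusted p = 0.302) without C3H injured library 2, and adjusted p = 0.0812 without C3H uninjured library 3. Bag4 was at 0.20 (SE 0.26, adjusted p = 0.573), Bag5 at -0.58 (SE 0.27, adjusted p = 0.126) and Bag6 at -0.46 (SE 0.27, adjusted p = 0.21). In B6 0 BAG genes passed with limma, and 1 had an unadjusted p under 0.05 (13.4% of all genes).

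Of the 25 J-domain genes not placed in the mitochondrial or ER class, whatever their site, 11 fell in C3H (44%, against 15.4% of all genes). In this class 1 rose (4%, against 15.3% of all genes), and the median was -0.71. Dnajb2, which carries ubiquitin-binding motifs and sorts clients to the proteasome, had 920.1 and 805 in C3H injured and 2373, 2425 and 2381 in C3H uninjured libraries. Its B6 counts were 1340.5, 1048 and 1269.6 in injured and 1551, 1889 and 1583 in uninjured libraries. The groups were apart in both strains, and Dnajb2 fell by 1.47 on the log2 scale (SE 0.19, adjusted p = 0.000336) in C3H and was at -0.46 (SE 0.17, adjusted p = 0.364) in B6. Dnaja4, an HSP40 of the same subfamily as Dnaja2, had 1345 and 914 in C3H injured and 2888, 2436 and 3265 in C3H uninjured libraries and fell by 1.36 on the log2 scale (SE 0.24, adjusted p = 0.00183). Dnaja2, a general partner of Hspa8, had 3577 and 3231 in C3H injured and 6405, 8469 and 7644 in C3H uninjured libraries and fell by 1.13 on the log2 scale (SE 0.23, adjusted p = 0.00365). Dnajc28 had 398 and 349 in C3H injured and 969, 785 and 831 in C3H uninjured libraries and fell by 1.20 on the log2 scale (SE 0.23, adjusted p = 0.00291). These 4 calls, and that of Dnajb5, held without each library in turn.

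Dnajc4 was at -1.25 (SE 0.29, adjusted p = 0.00688), Dnajc21, which acts in ribosome maturation, at -1.16 (SE 0.25, adjusted p = 0.00545) and Dnajc17, a spliceosome-linked protein, at -1.37 (SE 0.41, adjusted p = 0.0253). Adjusted p without C3H injured library 2 was 0.0648 for Dnajc4, 0.0513 for Dnajc21 and 0.269 for Dnajc17 (value -0.83). The Dnajc17 call was also lost without C3H uninjured library 1 (0.0549) or 3 (0.0722). The other 3 that fell were Dnajb4, a muscle HSP40 (-1.02), the ribosome-associated Dnajc2 (-0.88) and Dnajc7, a shuttle between HSP70 and HSP90 (-0.84). When C3H injured library 2 was left out, adjusted p was 0.0807 for Dnajb4, 0.176 for Dnajc2 and 0.0614 for Dnajc7, and without C3H injured library 1 it was 0.113 for Dnajc2 and 0.182 for Dnajc7. The Dnajc2 and Dnajc7 calls were lost as well without C3H uninjured library 2 (0.101 and 0.0742) or 3 (0.0802 and 0.0517), and that of Dnajc2 without B6 injured library 2 (0.0527).

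Dnajc13, an endosomal J-domain protein, had 1455 and 1795 in C3H injured and 894, 773 and 662 in C3H uninjured libraries and rose by 1.07 on the log2 scale (SE 0.32, adjusted p = 0.025). In B6 it had 625, 859 and 1079 in injured and 646, 630.4 and 1238 in uninjured libraries, which overlapped. The call was lost without C3H injured library 1 (0.0645) or 2 (0.173) or C3H uninjured library 3 (0.0795). Of the 13 J-domain genes that did not pass, Dnajb3, Dnajb13 and Dnajc6 were at normalised counts of at most 18.9 in every library, and no fold change is given for them. The other 10 lay between -0.75 (Dnajc8) and 0.31 (Dnajc5, the synaptic vesicle cysteine string protein). In B6 0 of the 25 passed with limma, and 5 had an unadjusted p under 0.05 (13.4% of all genes).

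Among 29 further cochaperones of HSP70 and HSP90, 14 fell in C3H (48.3%, against 15.4% of all genes; median -0.66). In this list 1 rose (3.45%, against 15.3% of all genes). Itgb1bp2, known as melusin and a muscle cochaperone of HSP90, had 1083 and 844 in C3H injured and 3768, 3479.9 and 4666 in C3H uninjured libraries and fell by 2.04 on the log2 scale (SE 0.29, adjusted p = 0.000519), a call that held without each library in turn. Fkbp4, a prolyl isomerase of steroid receptor complexes, was at -1.66 (SE 0.35, adjusted p = 0.0046), or adjusted p = 0.0805 without C3H injured library 2. The gene that rose was Fnip2, a folliculin-binding cochaperone, at 1.80 (SE 0.46, adjusted p = 0.0125), or adjusted p = 0.149 without C3H injured library 2. In B6 0 of the 29 passed with limma, 4 had an unadjusted p under 0.05 (13.4% of all genes), and the median was -0.31. The cardiomyocyte marker ratio in C3H was 0.318, and its part in the values of this list and of the J-domain and BAG genes was not tested.

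The difference between the strains in the injury effect was tested as an interaction, C3H minus B6. Of the 82 genes 1 passed, with the lower value in C3H, where 1.57% of all genes passed in either direction and 0.0678% with a lower value in C3H. That gene was Dnajb5, an HSP40 known to act in a redox-sensitive complex with a histone deacetylase in cardiomyocytes. It had 795 and 766 in C3H injured libraries, against 2317, 2024 and 1949.9 in C3H uninjured libraries. The counts were 1239, 1031 and 932 in B6 injured and 1261, 1172 and 1077 in B6 uninjured libraries. The C3H injured libraries were the lowest of all and the C3H uninjured libraries the highest, while the B6 groups overlapped. Dnajb5 fell by 1.42 on the log2 scale (SE 0.20, adjusted p = 0.00045) in C3H and was at -0.14 (SE 0.18, adjusted p = 0.726) in B6, a difference of -1.28 (SE 0.26, adjusted p = 0.0318). With the animal as a fixed block the difference was -1.33 (adjusted p = 0.0186). Its call was lost when any 1 library other than B6 uninjured library 3 was left out, at adjusted p from 0.0513 without C3H uninjured library 2 to 0.236 without C3H injured library 2.

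The small heat shock genes had interaction values of -1.52 to -0.93, all lower in C3H, and 5 of 6 had an unadjusted p under 0.05 (14.1% of all genes). None passed after adjustment with limma, the lowest adjusted p being 0.137 for Hspb6. DESeq2 called 4 members, Dnajb5, Dnajb2, Hspb6 and Hspb7, where it called 5.0% of all genes. A fit with the animal as a random block called Dnajb5, Dnajb2 and Hspb6, with 196 of all 14751 genes lower in C3H and 581 higher. With limma Dnajb2 was at -1.02 (SE 0.26, adjusted p = 0.0843) and Hspb7 at -1.06 (SE 0.38, adjusted p = 0.217). For mitochondrial chaperones the median difference was -0.64 and 3 of 8 had an unadjusted p under 0.05. For ER chaperones it was 0.18, with Dnajc3 at 0.77 (SE 0.26, adjusted p = 0.196). Effects in C3H and B6 that lie on different sides of the threshold are therefore not shown to differ for genes other than Dnajb5 in the limma test.

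**Figure D5:**
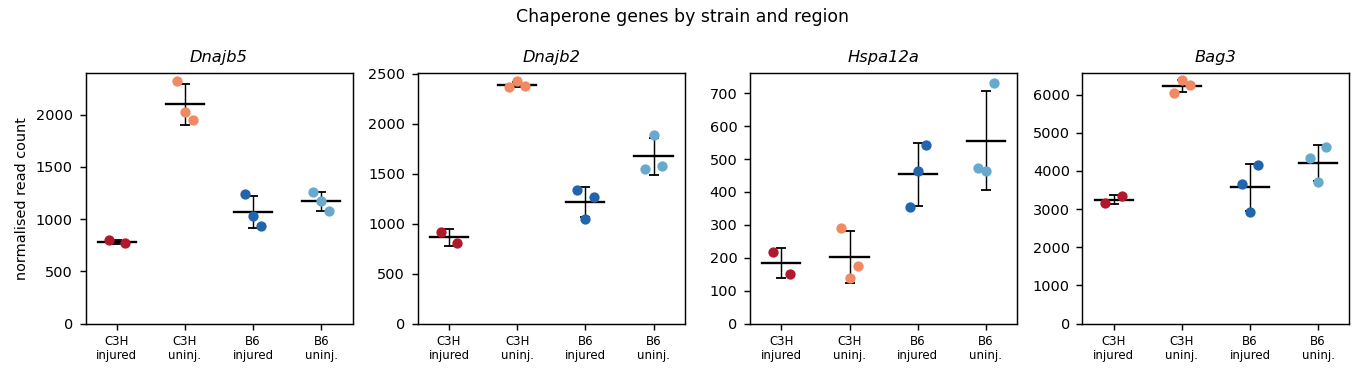
Normalised read count of Dnajb5, Dnajb2, Hspa12a and Bag3 in each library (points), with group means (bars) and SDs (whiskers), by strain and region. For Dnajb5 the means were 780.3 ± 20.3 in C3H injured, 2097 ± 194 in C3H uninjured, 1067 ± 157 in B6 injured and 1170.0 ± 92.1 in B6 uninjured regions, and both C3H groups lie below both B6 groups for Hspa12a.

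Between the uninjured regions of C3H and B6, 1 member (1.22%) was higher in C3H and 1 was lower, against 1.32% and 1.79% of all genes, so the members' shares were near those of all genes. DESeq2 called 5 members and 6.22% of all genes. Dnajb5 was higher in C3H, at 0.84 (SE 0.18, adjusted p = 0.0238), from the counts given above. Hspa12a, an atypical HSP70 relative best known from brain, had 290.1, 139 and 175 in C3H uninjured libraries and 473, 465 and 731 in B6 uninjured libraries and was at -1.50 (SE 0.31, adjusted p = 0.0215). The Dnajb5 call was lost without C3H uninjured library 1 (0.0745), 2 (0.057) or 3 (0.0602) or B6 uninjured library 1 (0.0582) or 2 (0.0706). That of Hspa12a was lost without C3H uninjured library 2 (0.0726) or 3 (0.0835) or B6 uninjured library 1 (0.0613). Strain, sex and any undercounting of C3H reads on mm9, a genome of the B6 strain, cannot be told apart here.

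Between the injured regions 4 members (4.88%) were lower in C3H, against 3.34% of all genes. With limma 0 were higher (3.72% of all genes), and 25 members had an unadjusted p under 0.05 (23.8% of all genes). DESeq2 called 14 in either direction (13.7% of all genes). Hspa12a had 216 and 152 in C3H injured libraries and 354, 464 and 544 in B6 injured libraries, at -1.30 (SE 0.34, adjusted p = 0.0426), so that it was lower in C3H in both regions without overlap. Its injury effect was -0.082 (SE 0.34, adjusted p = 0.876) in C3H and -0.28 (SE 0.31, adjusted p = 0.681) in B6. The others were small heat shock genes, whose counts are given above: Hspb2 at -1.63 (SE 0.36, adjusted p = 0.0208), Hspb6 at -1.21 (SE 0.30, adjusted p = 0.033) and Hspb8 at -1.34 (SE 0.35, adjusted p = 0.0424). Between uninjured regions these 3 were at -0.35 (SE 0.32, adjusted p = 0.65), 0.15 (SE 0.27, adjusted p = 0.835) and -0.18 (SE 0.32, adjusted p = 0.831) in the order named. In injured regions the summed count of the class was 51490.4 and 50579.9 in C3H and 77699, 75383 and 68812 in B6 libraries, and that of cardiomyocyte markers 574343 and 540135 in C3H and 1075154, 842218 and 877077 in B6 libraries, whose part was not tested. None of the 4 passed without C3H injured library 2, at adjusted p = 0.295 for Hspb2, 0.448 for Hspb6 (value -0.79), 0.518 for Hspb8 (value -0.82) and 0.428 for Hspa12a. Nor did any of the 4 pass without B6 injured library 1, at 0.0844 for Hspb2, 0.125 for Hspb6, 0.138 for Hspb8 and 0.0691 for Hspa12a. Without B6 injured library 2 the values were 0.0694 for Hspb2, 0.0748 for Hspb6, 0.129 for Hspb8 and 0.12 for Hspa12a. Without B6 injured library 3 they were 0.0545 for Hspb6, 0.0502 for Hspb8 and 0.0894 for Hspa12a. The Hspa12a call was also lost without C3H injured library 1 (0.0747), C3H uninjured library 3 (0.0549) or B6 uninjured library 1 (0.0598), and that of Hspb8 without B6 uninjured library 1 (0.0615), with edgeR (0.0567) and with the random block (0.0527).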

How the data were processed

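Per the labels, total RNA of injured and uninjured heart regions was extracted with a column kit and sequenced after standard Illumina preparation. Per the submitters' processing notes, the authors used TopHat2 2.0.11, HTSeq 0.6.1, DESeq and build mm9. Their annotation and strand setting are not named in these sources. The authors deposited normalised read counts, a signal in which each library's values were whole multiples of 1 step (100% at a tolerance of 1e-06), so that reads were recovered as whole numbers. The precision is limited by 2 or 3 libraries per group.

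Tests used log2(normalised count + 1), a scale on which fold changes of low genes come out too small. Genes needed a normalised count of 10 or more in 2 or more libraries (14751 tested, 523 not). Groups came from the labels. The main test was limma 3.58.1 (R 4.3.3), with 4 group means over all 11 libraries, a trend in the prior variance and 7 residual degrees of freedom. It was two-sided and adjusted over all genes. It was also run on simulated libraries without a mouse effect, and that run does not check the handling of regions from 1 mouse. Alternatives were a pseudocount of 5, no filter, TMM and quantile scaling, edgeR 4.0.16 and DESeq2 1.42.0 on the recovered reads, the animal as a block, fits of only the groups compared, and leaving out each library. Regions of the same number share a mouse by label, and residuals of its regions correlated at 0.305 and 0.575 in C3H and at 0.276, -0.0140 and 0.524 in B6. Exon lengths are of GENCODE on GRCm38, not mm9. No coordinates of reads were used.

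Genes were named by class. All small, HSP70, HSP110, HSP90, BAG and mitochondrial genes were named, with fixed ER genes, TRiC genes that passed and Tcp1, the 8 J-domain genes with the largest changes past the threshold, members called in other comparisons, and up to 2 genes each way of every other list. Others, such as Dnajb1, Dnajb14 and Dnajc13, were named after their values were seen. The members and lists were chosen with earlier results of these data known.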

Additional observations from a re-analysis of the deposited data

Results flagged for a closer look

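Dnajb5 was singled out because its injury effects differed between the strains by the interaction test: the C3H effect minus the B6 effect was -1.28 (SE 0.26, limma adjusted p = 0.0318), from -1.42 in C3H and -0.14 in B6. Both C3H mice with both regions had lower counts in the injured region. The values without single libraries are given in the report.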

How the results depend on the processing

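Of 95 results for named genes, each pseudocount and filter alternative left all on the same side of the threshold and in the same direction, and TMM, edgeR and DESeq2 reversed none. With quantile normalisation the C3H median of all genes moved by -0.13 (log2), to -0.11, and relative to it the small heat shock median was -0.87, the mitochondrial -1.02 and the ER median 0.49. The members called in C3H were still 4 up and 30 down, and those of all genes 2011 up and 2645 down. Leaving out 1 library other than a C3H injured one gave 19 to 32 members that fell and 2 to 5 that rose in C3H. Of all genes 1456 to 2532 fell and 1662 to 2485 rose there. For the interaction 0 to 1 member was called (0 to 15 of all genes lower in C3H and 83 to 263 higher). Between uninjured regions it was 0 to 4 members (108 to 430 of all genes lower and 105 to 358 higher). Between injured regions it was 0 to 8 (121 to 656 lower and 214 to 666 higher), and in B6 0 (0 to 1 lower and 1 to 5 higher). Interaction calls numbered 4 with DESeq2 (5.0% of all genes). With the animal as a random block they numbered 3, all lower in C3H, with 196 of all genes lower and 581 higher. Between uninjured regions DESeq2 called 5 (6.22% of all genes). The fit of only the groups compared called 0, with 90 of all genes higher in C3H and 101 lower. Between injured regions quantile normalisation called 9 members, all lower in C3H, with 853 of all 14751 genes lower and 681 higher. DESeq2 called 14 (13.7% of all genes). The fit of only the groups compared called 8, all lower in C3H, with 740 of all genes lower and 822 higher. With the animal as a fixed replicate block (3 residual degrees of freedom) 34 members were called in C3H (34.9% of all genes), 33 of them shared. The random block, with a consensus correlation of 0.392, called 44, of which 40 fell and 4 rose (3115 and 3051 of all 14751 genes). Strain comparisons cannot be fitted with the fixed block. Only the losses and gains named in the report changed a call of a named gene under it. Values changed sign in C3H with quantile normalisation for Hspa1a (-0.097), Hspa2 (-0.14), Hspa8 (0.19) and Hspa5 (0.10), and with the fixed block for Hspa1a (-0.13). In B6 quantile normalisation turned Hspb1 (0.016), Hspb6 (0.19) and Hspb7 (0.18). When 1 library was left out, values lay on both sides of 0 for Hspa12a (-0.34 to 0.21), Hspa1a (-0.13 to 0.47), Hspa2 (-0.016 to 0.17), Hsph1 (-0.54 to 0.17) and Hsp90b1 (-0.25 to 0.32) in C3H and for Hspb1 (-0.34 to 0.064) and Hspb8 (-0.084 to 0.17) in B6. The cause of these changes was not tested, and 2 C3H injured libraries limit every C3H result.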
